A study of Homo sapiens with 10 samples.

Results

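The transcripts described here belong to the death receptor axis, the route by which a signal at the cell surface can start apoptosis. The set holds 10 genes chosen by name: the ligand TNFSF10 (TRAIL), its receptors TNFRSF10A (DR4), TNFRSF10B (DR5), TNFRSF10C (DcR1) and TNFRSF10D (DcR2), the receptors FAS, TNFRSF21 (DR6) and TNFRSF1A (TNFR1), the initiator caspase CASP8 and its relative CFLAR (c-FLIP). They are 10 of the 19775 genes that the platform annotation pairs with at least 1 probe set of its own, and 41 of the 41091 probe sets with exactly 1 gene symbol. The 10 arrays, Affymetrix HG-U133 Plus 2.0, were of LoVo cells, an established human line from a colorectal adenocarcinoma, and the labels call the arrays of a group biological replicates. The ADMA group (n = 4) was kept for 96 h in medium with 0% fetal bovine serum and 10 μM asymmetric dimethylarginine (ADMA), a methylated arginine that inhibits nitric oxide synthases. The serum-starved group (SS, n = 3) was kept for 96 h in 0% serum without ADMA, and the control group (C, n = 3) for 96 h in 10% serum. No group received ADMA in the presence of serum, and all arrays come from 1 line at 1 dose and 1 time.

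Death receptors gather into clusters when they bind their ligands, and their intracellular death domains then recruit the adaptor FADD and caspase-8, which activates itself by proximity and cleaves the executioner caspases or BID, the link to mitochondria. The decoy receptors bind TRAIL without a working death domain, and c-FLIP, which resembles caspase-8 but lacks its protease activity, competes for the same complex. In colon epithelium FAS is present under normal conditions, and TRAIL receptors have long been studied in colorectal cancer lines because TRAIL kills many tumour cells and spares most normal ones.

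A signal here is the brightness that MAS 5.0 gives for a probe set, in arbitrary units after the authors scaled every array to the same trimmed mean of 500.1. Differences are in log2 of that signal, from limma fitted over 12344 genes with 1 probe set each, the brightest. A gene was called where its adjusted p lay under 0.01 and its fold reached 1.2. The background level of an array, taken from bacterial control probe sets, lay between 35.0 and 70.2. The median signal over all probe sets differed between groups, at 91.8 to 98.1 in ADMA, 87.4 to 90.6 in SS and 60.6 to 73.1 in C. Centring each array on its median moved the median difference over all genes by -0.39 between SS and C, -0.12 between ADMA and SS and -0.51 between ADMA and C, so calls that end under centring are given beside the result. Counts under centring thus stand beside a shift of all genes. The section on processing gives the calls of all genes on that scale, except those lower between ADMA and SS. Shares of all probe sets called under centring are not given. The 28S ribosomal RNA probe set also differed (795 to 1052 in ADMA, 1345 to 2014 in SS, 501 to 634 in C), as did the ratio of 3′ to 5′ ACTB probe sets (1.02 to 1.05 in ADMA, 1.13 to 1.23 in SS and 1.01 to 1.08 in C). All 10 colon epithelium markers were above background on every array. Their summed signal was 149152 to 169966 in ADMA, 120356 to 138973 in SS and 81927 to 83074 in C. Of 8 leukocyte markers, LYZ and ITGAM were above background on every array and PTPRC, CD14 and NKG7 on none. The summed signal of the 8 was 1666 to 2328 in ADMA, 4251 to 4946 in SS and 646 to 968 in C. Fibroblast markers were above background for 2 of 8 (COL1A1 and VIM) and endothelial markers for 1 of 6 (PECAM1). The summed signal of all 8 fibroblast markers was 2506 to 2884 in ADMA, 2162 to 2341 in SS and 1402 to 1505 in C. That of all 6 endothelial markers was 332 to 516 in ADMA, 299 to 464 in SS and 309 to 349 in C. The part of these measures in the results below was not tested.

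Serum starvation raised the transcripts of 4 receptors, TNFRSF10D, TNFRSF10B, TNFRSF21 and FAS, and lowered those of the ligand TNFSF10 and of CASP8. With ADMA in the starvation medium the same 4 receptor transcripts were lower than in SS, and CASP8 and TNFRSF1A were higher. For TNFRSF10B that fall was called in 1 of its 3 measured probe sets. Set against serum-fed cells, ADMA-treated cells had higher TNFRSF10D, TNFRSF21, TNFRSF10B and TNFRSF1A and lower TNFSF10. Under centring the rises of TNFRSF21, TNFRSF10B and TNFRSF1A were not called. The call of TNFSF10 was lost when a particular C array was left out. Bulk arrays cannot tell fewer cells with a transcript from less RNA per cell.

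Of the 9 genes with a probe set above the filter on low signal, 4 were called higher in SS than in C and 2 lower, where 30.3% of all genes tested were called higher and 27.3% lower. With arrays centred on their medians the 9 split into 4 higher and 4 lower, where the median over all genes was -0.32. The groups did not overlap for 7 of the 9, against 71.2% of all genes. Between ADMA and SS, 2 of the 9 were called higher and 4 lower, where 15.7% and 13.8% of all genes were, and the groups did not overlap for 7 of the 9, against 46.1% of all genes. Between ADMA and C, 4 were called higher and 1 lower, against 26.6% and 23.2% of all genes, and the groups did not overlap for 5 of the 9, against 61.9%. That split became 1 higher and 5 lower under centring, where the median over all genes was -0.44. The median difference of the 9 genes was 0.13 between SS and C, -0.20 between ADMA and SS and 0.10 between ADMA and C, beside 0.07, 0.03 and 0.07 over all genes. The share called in serum starvation, 6 of 9, was near the 57.6% of all genes. SS arrays enter both of the first comparisons and C arrays enter the first and the last, so the directions are not independent of one another.

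**Figure D1:**
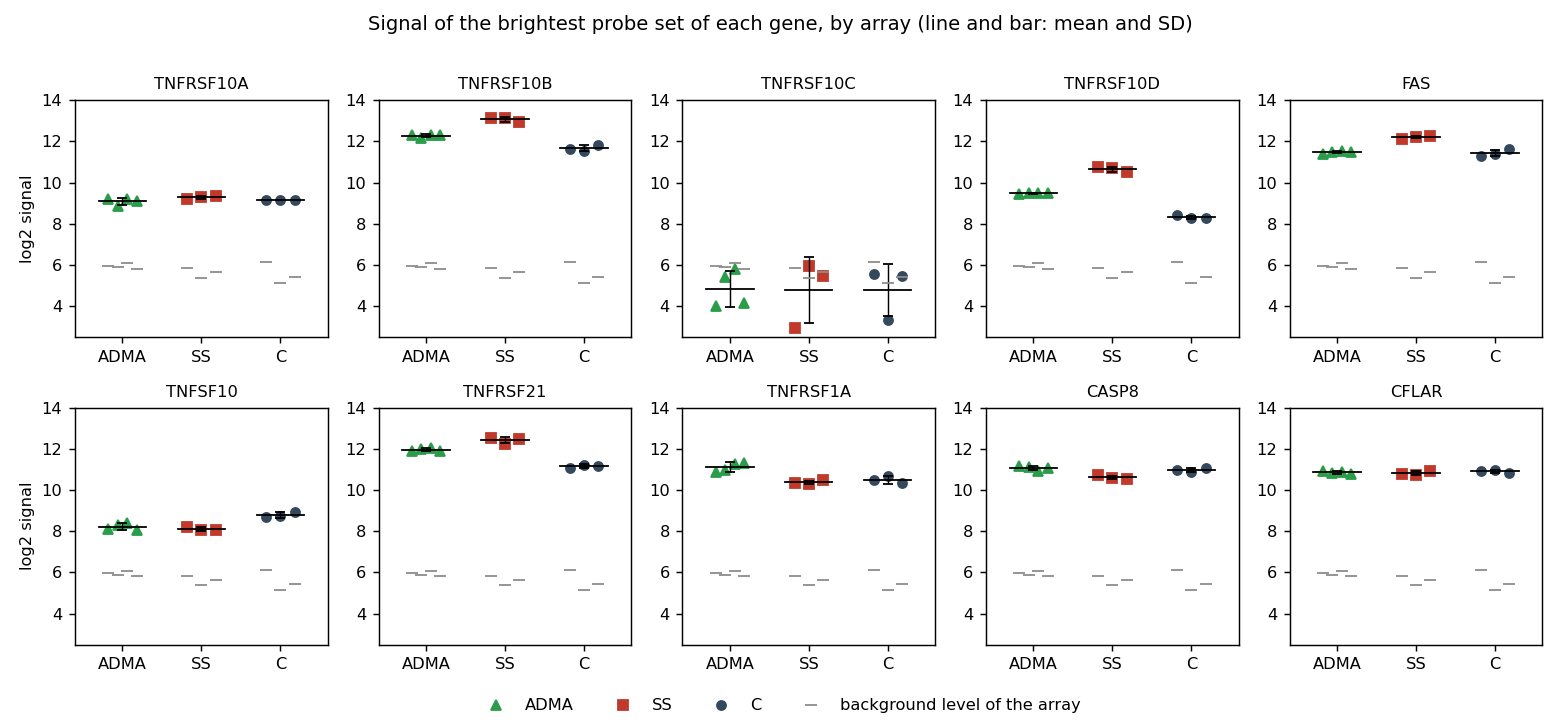
Log2 signal of the brightest probe set of each of the 10 genes, with 1 point per array for ADMA (triangles, n = 4), SS (squares, n = 3) and C (circles, n = 3); the horizontal line and bar are the mean and SD, and grey dashes mark the background level of each array. TNFRSF10B, TNFRSF10D and TNFRSF21 are ordered SS, ADMA, C with no overlap, FAS is high in SS alone, TNFRSF1A is high in ADMA alone, and TNFRSF10C lies at background.

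**Figure D2:**
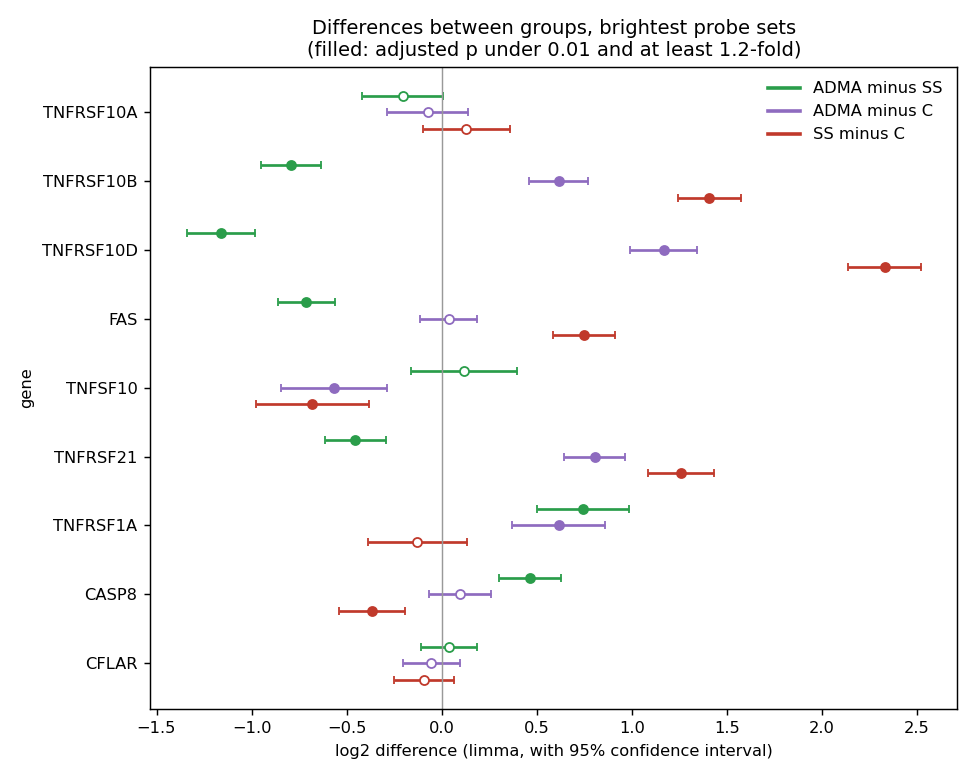
Log2 differences from limma for the 9 tested genes, with 95% confidence intervals: ADMA minus SS in green, ADMA minus C in purple, SS minus C in red, filled where called. The differences between SS and C run from -0.68 for TNFSF10 to 2.33 for TNFRSF10D, and those between ADMA and SS from -1.16 for TNFRSF10D to 0.74 for TNFRSF1A.

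TNFSF10 encodes TRAIL, the ligand of the 4 TNFRSF10 receptors. Its brightest probe set gave signals of 279.9, 322, 339 and 263 in ADMA, 299, 264 and 268 in SS and 411, 424 and 499 in C. Every array without serum lay below every C array, and the ADMA and SS arrays overlapped. TNFSF10 fell in SS relative to C, with a log2 difference of -0.68 (SE 0.14, adjusted p = 0.000529), which is 1.60-fold lower by limma. Between ADMA and SS the difference was 0.12 (95% confidence interval -0.16 to 0.39, adjusted p = 0.510), and between ADMA and C it was -0.56 (SE 0.13, adjusted p = 0.00159). The last call was lost without C replicate 3, at -0.48 with an adjusted p of 0.0129. In a fit over all probe sets, all 3 TNFSF10 probe sets fell in SS (differences -1.02 to -0.68) and none was called between ADMA and SS (0.12 to 0.47).

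TNFRSF10B encodes DR5, a TRAIL receptor with a death domain. Its brightest probe set gave 5136, 4659, 5036 and 5028 in ADMA, 9063, 8915 and 7862 in SS and 3149, 2973 and 3626 in C. No array of a group reached into another group, in the order SS, ADMA, C. TNFRSF10B rose 2.65-fold in SS relative to C, by 1.41 (SE 0.078, adjusted p = 8.29e-10), a difference above that of 93.0% of all genes tested. It was 1.73-fold lower in ADMA than in SS, at -0.79 (SE 0.073, adjusted p = 1.15e-06), and stayed higher in ADMA than in C, at 0.62 (SE 0.073, adjusted p = 3.79e-06). With arrays centred on their medians the difference between ADMA and C was 0.11 and was not called.

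The other TNFRSF10B probe sets also rose in SS but were not called between ADMA and SS. Probe set 210405_x_at read 778, 664, 878 and 838 in ADMA, 856, 909.6 and 1035 in SS and 436, 499 and 566 in C, so that ADMA and SS overlapped. Probe set 209294_x_at read 836, 726, 780.4 and 848 in ADMA, 617, 772 and 886 in SS and 447, 399 and 530.3 in C. Their differences between SS and C were 0.90 (SE 0.13, adjusted p = 2.05e-05) and 0.72 (SE 0.14, adjusted p = 0.000360), and those between ADMA and SS were -0.25 (SE 0.12, adjusted p = 0.127) and 0.086 (SE 0.13, adjusted p = 0.650). The suffix _x_at marks probe sets with probes that also match other sequences. The fall of TNFRSF10B with ADMA thus rests on 1 of its 3 measured probe sets, while the rise in SS was called for all 3, or for 2 of the 3 under centring. The remaining probe set, 1556645_s_at, was under the filter, with at most 64.9 on any array. Averaged over all 4 probe sets, this dim one included, TNFRSF10B differed by -0.18 between ADMA and SS, not called (adjusted p = 0.337), and the average over the 3 measured ones differed by -0.32.

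TNFRSF10A encodes DR4, the other TRAIL receptor with a death domain, and its probe sets did not agree. The brightest, 1552648_a_at, gave 584, 462, 583 and 553 in ADMA, 592, 632 and 655 in SS and 573, 567 and 576 in C. Although the SS arrays lay above those of both other groups, none of its differences was called by limma: 0.13 (95% confidence interval -0.097 to 0.36, adjusted p = 0.294) between SS and C, -0.20 (95% confidence interval -0.42 to 0.0079, adjusted p = 0.112) between ADMA and SS, and -0.074 (95% confidence interval -0.29 to 0.14, adjusted p = 0.536) between ADMA and C. When arrays were centred on their medians the difference between SS and C turned to -0.26, also not called, and that between ADMA and C was -0.58 and was called. Probe set 241371_at read 481, 487, 526 and 532 in ADMA, 725, 773 and 816 in SS and 418, 479 and 442 in C. For it a rise in SS was called, at 0.79 (SE 0.099, adjusted p = 7.34e-06), as was a fall with ADMA, at -0.61 (SE 0.093, adjusted p = 0.000190). Probe set 231775_at was called in neither comparison, with 0.12 between SS and C and -0.31 between ADMA and SS. Averaged over its 3 probe sets TNFRSF10A was called in both, at 0.35 and -0.37. Under centring no TNFRSF10A probe set was called between SS and C, and the fall of 241371_at with ADMA still was.

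TNFRSF10D encodes DcR2, a decoy with a truncated death domain, and had the largest differences of the 9 genes in serum starvation and with ADMA. Its brightest probe set gave 701, 728, 721 and 722 in ADMA, 1703, 1669 and 1459.7 in SS and 339, 314 and 307 in C. The groups were far apart, with the 4 ADMA arrays within 701 to 728. TNFRSF10D rose 5.03-fold in SS relative to C, by 2.33 (SE 0.089, adjusted p = 1.97e-11), which placed it 177th from the top among 12344 genes. It was 2.24-fold lower in ADMA than in SS, at -1.16 (SE 0.083, adjusted p = 1.16e-07), and 2.25-fold higher in ADMA than in C, at 1.17 (SE 0.083, adjusted p = 2.08e-08). The dimmer probe set 210654_at read 127, 183, 131 and 132 in ADMA, 209, 247 and 277 in SS and 86.9, 78.9 and 59.4 in C. It rose in SS by 1.71 (SE 0.23, adjusted p = 1.52e-05), and its difference between ADMA and SS, -0.78 (SE 0.22, adjusted p = 0.0124), missed the threshold, which it passed under centring.

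TNFRSF10C encodes DcR1, a decoy held in the membrane by a lipid anchor, and was not well above background. Its brightest probe set gave 16.2, 41.9, 55.5 and 17.5 in ADMA, 7.76, 61.4 and 44.3 in SS and 47.3, 9.91 and 44.8 in C. Of the 10 arrays, 2 exceeded their background level for this probe set, 2 for 234644_x_at, and none for 234195_at and 211163_s_at. No fold is given for this gene. In RefSeq the 4 TRAIL receptor genes are neighbours on chromosome 8, in the order TNFRSF10B, TNFRSF10C, TNFRSF10D, TNFRSF10A.

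FAS, the receptor of FAS ligand, rose in SS and was back within the range of C in ADMA. Its brightest probe set gave 2698, 2912, 2920.4 and 2913 in ADMA, 4519, 4691 and 4842 in SS and 2538, 2712 and 3149.8 in C. The SS arrays lay above all others, and the 4 ADMA arrays fell inside the range of the C arrays. FAS was 1.68-fold higher in SS than in C, at 0.75 (SE 0.075, adjusted p = 4.75e-07), and 1.64-fold lower in ADMA than in SS, at -0.71 (SE 0.071, adjusted p = 2.31e-06). The difference between ADMA and C was 0.036 (95% confidence interval -0.12 to 0.19, adjusted p = 0.678). Under centring on array medians that difference became -0.47 and was called (adjusted p = 0.000271). All 4 measured FAS probe sets rose in SS, by 0.49 to 0.91, and all 4 were lower with ADMA than in SS, at -0.85 to -0.61. Under centring 3 of the 4 rises and all 4 falls were called. For 204781_s_at, the dimmest of the 4, the signals were 1479, 1506, 1505 and 1493 in ADMA, 2294, 2281 and 2273 in SS and 1524, 1592 and 1760.3 in C, so that all 4 ADMA arrays lay just below the C arrays. The fifth probe set, 233820_at, was under the filter.

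TNFRSF21 encodes DR6, a death receptor whose proposed ligand is a fragment of the amyloid precursor protein. The brightest probe set gave 3869.8, 4113, 4301 and 3786 in ADMA, 5931, 4877 and 5748 in SS and 2142, 2429 and 2326 in C. Its groups stood in the order SS, ADMA, C with no overlap. TNFRSF21 rose 2.39-fold in SS relative to C, by 1.26 (SE 0.080, adjusted p = 3.54e-09). It was 1.37-fold lower in ADMA than in SS, at -0.45 (SE 0.075, adjusted p = 0.000227), and higher in ADMA than in C, at 0.81 (SE 0.075, adjusted p = 3.29e-07). The last call was lost under centring, at 0.30. The second probe set, 214581_x_at, read 2265, 2284, 2025 and 1810.4 in ADMA, 4399, 4153 and 3943 in SS and 1337, 1397 and 1642 in C. It rose by 1.52 (SE 0.098, adjusted p = 8.31e-09) in SS and fell by 1.0 with ADMA, where the brightest one fell by 0.45, and the difference between the probe sets was not tested.

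TNFRSF1A encodes TNFR1, a receptor of TNF that signals to NF-κB and, in other complexes, to caspase-8. Of the tested receptors in the set it was the one called higher with ADMA. Its only probe set gave 1885, 2015, 2510.2 and 2587 in ADMA, 1320.2, 1257 and 1420.1 in SS and 1449, 1656 and 1282 in C. All ADMA arrays lay above all others, while SS and C overlapped. TNFRSF1A was 1.67-fold higher in ADMA than in SS, at 0.74 (SE 0.11, adjusted p = 0.000118), above 95.3% of all genes tested, and 1.53-fold higher in ADMA than in C, at 0.62 (SE 0.11, adjusted p = 0.000253). Between SS and C the difference was -0.13 (95% confidence interval -0.39 to 0.13, adjusted p = 0.369). With arrays centred on their medians, the difference between ADMA and C was 0.11 and was not called, and that between SS and C was -0.52 and was called (adjusted p = 0.00345). The ADMA arrays were spread more widely for this gene (SD 0.23 in log2, n = 4) than for the other tested genes (0.024 to 0.17).

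Promoters of 6 of the 10 genes were matched in the RefSeq table, and those of 3 are shown because FAS and TNFRSF21 rose together in SS while TNFSF10 fell. Each line gives the 250 bases before the start of transcription in RefSeq (GRCh38.p14, FAS from the first of its 3 starts), read 5′ to 3′ on the gene's strand. Capitals mark motifs found on either strand, which do not overlap in these windows.
FAS (chr10:88990548-88990797, plus strand): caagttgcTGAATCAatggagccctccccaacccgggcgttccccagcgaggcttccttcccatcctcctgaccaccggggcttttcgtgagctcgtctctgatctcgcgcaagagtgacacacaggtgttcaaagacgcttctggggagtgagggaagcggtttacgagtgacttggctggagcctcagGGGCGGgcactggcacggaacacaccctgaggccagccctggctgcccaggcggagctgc
TNFRSF21 (chr6:47309906-47310155, minus strand): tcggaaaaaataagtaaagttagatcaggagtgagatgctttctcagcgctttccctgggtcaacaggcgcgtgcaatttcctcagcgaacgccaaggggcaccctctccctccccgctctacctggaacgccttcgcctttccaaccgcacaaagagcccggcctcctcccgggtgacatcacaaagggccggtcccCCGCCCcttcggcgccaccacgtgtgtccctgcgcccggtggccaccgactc
TNFSF10 (chr3:172523431-172523680, minus strand): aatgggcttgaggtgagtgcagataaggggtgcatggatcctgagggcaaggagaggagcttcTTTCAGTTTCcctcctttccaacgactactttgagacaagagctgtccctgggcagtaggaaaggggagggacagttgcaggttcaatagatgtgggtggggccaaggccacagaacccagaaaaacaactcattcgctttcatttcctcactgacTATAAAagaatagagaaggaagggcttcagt
The motifs searched were the GC box (GGGCGG), a loose AP-1 pattern (TGANTCA, any base at N), the TATA box (TATAAA), the core of the interferon-stimulated response element, the STAT site (TTCNNNGAA), the cAMP response element (TGACGTCA) and the FOXO site (GTAAACA). The FAS window holds a match to the loose AP-1 pattern (TGAATCA) beginning at position -242 and a GC box at -60 from the start. The windows of the other FAS starts hold GC boxes and no AP-1 match. The TNFRSF21 window holds a GC box at -52, on the opposite strand. In the TNFSF10 window there are a TATA box at -31 and, on the opposite strand, an interferon response core at -187. Among 35116 promoter windows of the same length, 42.6% hold a GC box, 6.57% the loose AP-1 pattern, 10.7% a TATA box and 3.02% the interferon response core. A STAT site (6.57% of windows), a FOXO site (2.98%) or a cAMP response element (1.65%) was in none of the 3 windows, and the TNFRSF1A window held none of the 7 motifs. CASP8, which also fell in SS, is not shown. Across its starts there are a GC box (-96), a STAT site (-200), a TATA box (-139) and a match to the AP-1 pattern (-61). These are matches of letters and do not show binding.

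CASP8, the initiator caspase that the receptors recruit, moved in the opposite direction to TNFRSF10B, TNFRSF10D, FAS and TNFRSF21. The brightest probe set gave 2338, 2225, 1972 and 2141 in ADMA, 1682, 1529 and 1505 in SS and 2049, 1865 and 2167 in C. Every SS array lay below every other array, and ADMA and C overlapped. CASP8 was 1.29-fold lower in SS than in C, at -0.37 (SE 0.081, adjusted p = 0.000988), and 1.38-fold higher in ADMA than in SS, at 0.46 (SE 0.076, adjusted p = 0.000203). Between ADMA and C the difference was 0.097 (95% confidence interval -0.065 to 0.26, adjusted p = 0.280), and under centring it turned to -0.41 and was called (adjusted p = 0.000755). The second probe set, 207686_s_at, read 619, 643, 801 and 649 in ADMA, 359.7, 438 and 454 in SS and 555, 645 and 692 in C. Both directions were called for it too, at -0.60 (SE 0.13, adjusted p = 0.00109) between SS and C and 0.70 (SE 0.12, adjusted p = 0.000531) between ADMA and SS. When all CASP8 probe sets were averaged, with the dim 1553306_at among them, neither difference was called (-0.45 and 0.61, adjusted p = 0.200 and 0.104).

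**Figure D3:**
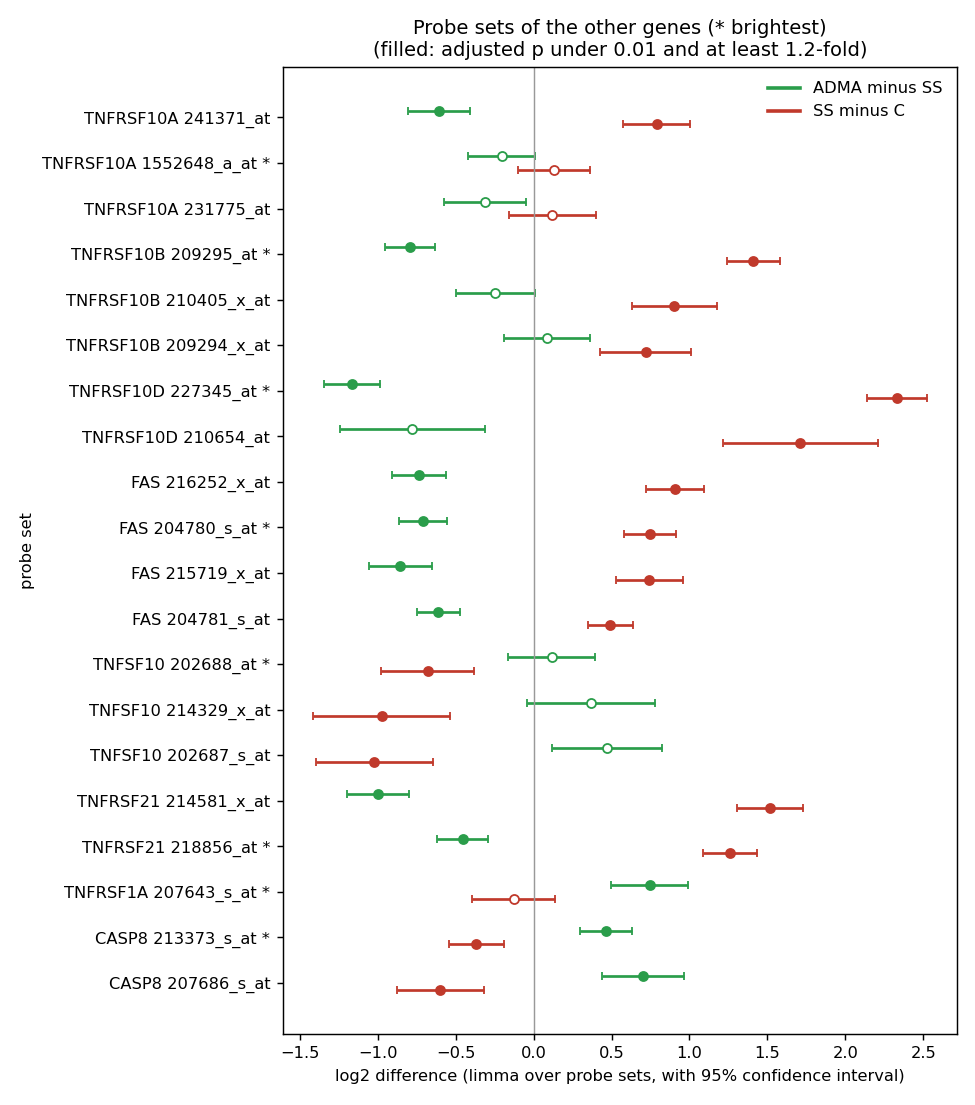
Log2 differences from limma over probe sets for the 20 measured probe sets of the 8 genes other than CFLAR, with 95% confidence intervals: ADMA minus SS in green and SS minus C in red, filled where called. The probe sets of FAS, TNFRSF21 and CASP8 move together within each gene, while those of TNFRSF10A and TNFRSF10B differ in which comparisons are called.

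CFLAR, the inhibitor that competes with caspase-8, gave an answer that depended on the probe set. It lies beside CASP10 and CASP8 on chromosome 2 in RefSeq. Its brightest probe set, 209939_x_at, gave 1964, 1843, 1887 and 1775 in ADMA, 1788, 1695 and 1977 in SS and 1959, 2028 and 1830.5 in C. All 3 groups overlapped, with differences of -0.093 (95% confidence interval -0.25 to 0.066, adjusted p = 0.283) between SS and C, 0.039 (95% confidence interval -0.11 to 0.19, adjusted p = 0.691) between ADMA and SS and -0.054 (95% confidence interval -0.20 to 0.094, adjusted p = 0.516) between ADMA and C by limma. Under centring on array medians, CFLAR was called lower in SS than in C (-0.48) and in ADMA than in C (-0.56). Averaged over all its 14 probe sets, of which 2 were under the filter, CFLAR was instead called higher in SS than in C, at 1.24 (adjusted p = 1.62e-05), and the average over the 12 measured ones differed by 1.10. Both averages hold 239629_at as measured, which reached the filter only through the arrays without serum, and neither was recomputed without it.

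Of the 14 CFLAR probe sets, 12 were at or above the filter, and 8 of these were called higher in SS than in C and none lower, a split of 7 and 2 under centring. The differences between SS and C ranged from -0.20 for 210563_x_at to 2.01 for 235427_at among the 11 that were above background on every array. The remaining one, 239629_at, has only a bound, since it reached the filter through the arrays without serum. Probe set 239629_at read 437, 494, 457 and 452 in ADMA, 326, 541 and 602 in SS and 30.5, 48.0 and 24.1 in C, where 1 of the 3 C arrays exceeded its background level. It was at least 9.02-fold higher in SS than in C, with each array counted at no less than its background level. Limma called the difference as measured, 3.85, so the probe set is among the 8 called higher. That call is no further support, since the filter was reached through the arrays that are high. For 235427_at the signals were 317, 292, 298 and 253 in ADMA, 424, 339 and 261 in SS and 102, 73.3 and 76.6 in C, and the difference between SS and C was 2.01 (SE 0.20, adjusted p = 8.13e-07). Probe set 211316_x_at read 397, 436, 361 and 413 in ADMA, 367, 526 and 541 in SS and 157, 168 and 163 in C, a rise in SS of 1.53 (SE 0.16, adjusted p = 8.11e-07). Its ADMA and SS arrays overlapped, as did those of 239629_at and 235427_at.

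The other 5 probe sets called higher in SS were 209508_x_at, 208485_x_at, 211317_s_at, 211862_x_at and 210564_x_at, with differences of 1.18, 1.15, 1.07, 0.99 and 0.77. None of the 12 was called between ADMA and SS, where differences ran from -0.23 to 0.098. Between ADMA and C, 7 were called higher and none lower (3 and 2 under centring), where 28.5% and 18.6% of all probe sets were. Under centring, too, none of the 12 was called between ADMA and SS. The 2 brightest probe sets were among the 4 not called in SS. Most CFLAR probe sets carry the suffix _x_at, and the annotation used here does not say which splice forms each one reads. Across the 10 genes, 20 of the 32 measured probe sets were called higher in SS and 5 lower, where 30.3% and 22.4% of all probe sets were. The split under centring, where the median over all genes shifts downwards, was 16 and 8. With ADMA against SS and without centring, 3 of the 32 were called higher and 9 lower, where 12.5% and 10.2% of all probe sets were. CFLAR supplies 12 of the 32, and probe sets of 1 gene are not independent.

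**Figure D4:**
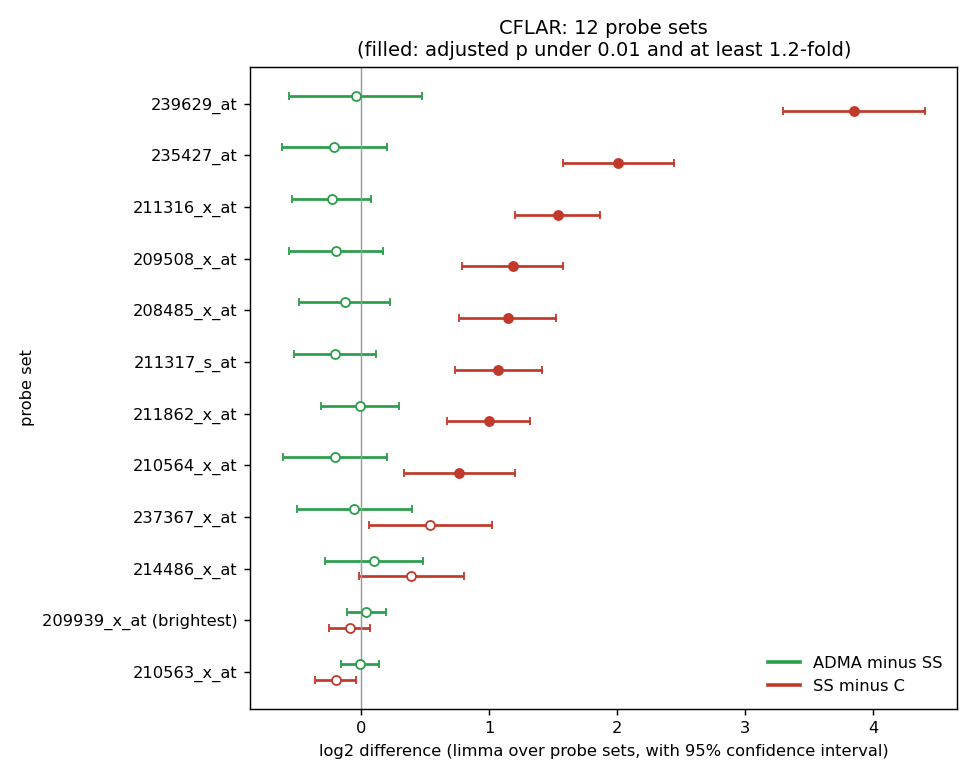
Log2 differences from limma over probe sets for the 12 measured CFLAR probe sets, ordered by the difference between SS and C, with 95% confidence intervals: ADMA minus SS in green and SS minus C in red, filled where called. The red points spread from -0.20 to 2.01, apart from that of 239629_at at the top, which is drawn as measured although 1 of its 3 C arrays exceeded background, and the green points stay between -0.23 and 0.10.

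The partners of these genes were read from lists of 74 ligands, receptors, adaptors, caspases and regulators, of which 54 were tested. In SS relative to C, 23 were called higher and 13 lower (median 0.29), where 30.3% and 27.3% of all genes were. The 23 include TNFRSF19 and TRAF1, which reached the filter only through the arrays without serum. With ADMA relative to SS 7 were called higher and 9 lower (median -0.06), near the 15.7% and 13.8% of all genes. Over all genes the medians were 0.07 and 0.03. Centring on array medians changed these splits to 16 higher and 23 lower in SS and to 2 higher and 13 lower with ADMA. On that scale the medians over all genes were -0.32 and -0.091, and the rises with ADMA of TNFRSF1B, CUL3, CASP6, CASP2 and BID given below were not called. Among 3 tested ligands, TNFSF15 (TL1A), the ligand of the death receptor TNFRSF25, rose in SS. It gave 516, 454, 608 and 472 in ADMA, 2662, 2680.2 and 2773 in SS and 231, 177 and 189 in C. Its groups were far apart in the order SS, ADMA, C, with differences of 3.78 (SE 0.12, adjusted p = 4.61e-12) between SS and C and -2.41 (SE 0.12, adjusted p = 3.79e-09) between ADMA and SS by limma. APP, the precursor of the proposed DR6 ligand, rose in SS by 0.87 and differed by -0.20 between ADMA and SS, which was not called. FASLG, TNF and LTA, the ligands of FAS and TNFR1, were under the filter.

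Of 6 other tested receptors of the family, 5 rose in SS and 1 fell (3 and 1 under centring), where 30.3% and 27.3% of all genes did without centring. TNFRSF25 (DR3) gave 607, 623, 463 and 735 in ADMA, 442, 589 and 794 in SS and 158, 163 and 188 in C. It rose in SS by 1.81 (SE 0.20, adjusted p = 1.18e-06) and differed by 0.018 between ADMA and SS, so its ADMA arrays stayed above those of C. TNFRSF19 (TROY) gave 86.5, 92.9, 98.5 and 116 in ADMA, 168, 156 and 180.0 in SS and 37.8, 64.3 and 51.9 in C, where 2 of the 3 arrays exceeded background. It was at least 2.72-fold higher in SS than in C, with arrays counted at no less than background. The call in SS is of the values as measured. Every C array lay under the filter signal of 76.2, so TNFRSF19 was tested only through the arrays without serum. Its call is no further support for the count of 5. TNFRSF1B, the TNF receptor without a death domain, fell by 0.87 in SS. Of the 6 it was also the one called between ADMA and SS, at 0.46 (SE 0.12, adjusted p = 0.00569), the direction of TNFRSF1A.

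Among 12 tested adaptors and ubiquitin enzymes, 6 rose and 2 fell in SS, and 1 rose and 1 fell with ADMA. Of all genes 30.3% rose and 27.3% fell in SS, and 15.7% rose and 13.8% fell with ADMA. FADD, the adaptor between receptor and caspase-8, was named after its values were seen. It gave 2038, 2283, 2111 and 2445 in ADMA, 2165, 1924 and 2129 in SS and 2347, 2469 and 2238 in C. Its differences were -0.18 (SE 0.079, adjusted p = 0.0532) between SS and C and 0.097 (SE 0.074, adjusted p = 0.317) between ADMA and SS, neither of them called, but under centring FADD was called lower in SS (-0.57). TNFAIP3 (A20), a ubiquitin-editing inhibitor of TNFR1 and TRAIL receptor signalling, rose in SS by 2.26 (SE 0.10, adjusted p = 9.53e-11) and fell by 0.76 with ADMA. TRAF1, an adaptor induced by NF-κB, gave 90.9, 92.6, 106 and 103 in ADMA, 148, 99.1 and 137 in SS and 32.9, 40.9 and 57.0 in C, where 2 of the 3 arrays exceeded background. On the same terms it was at least 2.31-fold higher in SS than in C. The call of TRAF1 in SS is of the values as measured, and TRAF1 too was tested only through the arrays without serum. That call is no further support for the count of 6. Between ADMA and SS it differed by -0.37, not called. CUL3, the ligase scaffold that ubiquitinates caspase-8 at the TRAIL receptor complex, fell by 0.39 in SS and rose with ADMA by 0.31, the directions of CASP8.

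Of 4 other tested caspases, none rose and 1 fell in SS, and 2 rose with ADMA, where 27.3% of all genes fell in SS and 15.7% rose with ADMA. CASP6, an executioner that can cleave caspase-8, gave 1322, 1119, 1299 and 1234 in ADMA, 1001, 1049.8 and 990.3 in SS and 2183, 2315 and 2138 in C. It fell by 1.13 in SS and rose with ADMA by 0.29. CASP2 rose with ADMA by 0.28. CASP10, the closest relative of CASP8 and its neighbour on the chromosome, was added after its values were seen: it differed by 0.30 between SS and C and -0.12 between ADMA and SS, neither called. Among 8 genes of the mitochondrial arm, 5 fell in SS (BID, BAX, BAK1, HTRA2 and ENDOG) and 1 rose (APAF1), where 27.3% and 30.3% of all genes did. Their median was -0.57, beside 0.07 over all genes. Under centring 7 fell and none rose, where the median over all genes was -0.32. BID, which caspase-8 cleaves to reach mitochondria, gave 1454, 1538, 1396 and 1435 in ADMA, 1253, 1162 and 1159 in SS and 2573, 2472 and 2312 in C. BID fell by 1.04 in SS and rose with ADMA by 0.29, while ENDOG, a mitochondrial nuclease, fell by 1.24 in SS and did not pass the test with ADMA.

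Of 10 genes in the list of inhibitors beside or below the receptors, 4 rose and 2 fell in SS (2 and 4 under centring), and 1 rose and 3 fell with ADMA. Of all genes 30.3% rose and 27.3% fell in SS, and 15.7% rose and 13.8% fell with ADMA. The list also holds DAP3 and FAF1, which are not inhibitors and were called in neither comparison without centring. XIAP, which blocks executioner caspases, rose in SS by 1.11 (SE 0.099, adjusted p = 1.16e-07) and fell by 0.59 with ADMA. BCL2, the mitochondrial guard, gave 482, 519, 510.3 and 432 in ADMA, 274, 225 and 223 in SS and 507, 530.2 and 539 in C. It fell by 1.13 in SS and rose with ADMA by 1.02, opposite to XIAP. FAIM, an inhibitor of FAS-induced death, fell by 1.2 in SS. In the necroptosis list PGAM5, a mitochondrial phosphatase, fell by 2.09 in SS and rose with ADMA by 0.54, as 1 of 3 tested.

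Of 8 tested regulators of receptor transcription, glycosylation and shedding, 5 rose and 1 fell in SS (3 and 2 under centring, where ATF4 and ADAM17 were no longer called higher), and none rose and 4 fell with ADMA. Of all genes 30.3% rose and 27.3% fell in SS, and 13.8% fell with ADMA. DDIT3 (CHOP), a stress factor known to act on the TNFRSF10B promoter, gave 1080.4, 887, 1219 and 1285 in ADMA, 2742, 2487 and 2465 in SS and 401, 453 and 418 in C. It was highest in SS and lowest in C with no overlap, as were TNFRSF10B, TNFRSF10D, TNFRSF21 and TNFSF15. Its differences by limma were 2.6 (SE 0.12, adjusted p = 1.05e-10) between SS and C and -1.21 (SE 0.11, adjusted p = 1.02e-06) between ADMA and SS. Whether DDIT3 acted on TNFRSF10B in these cells was not tested. FOXO3, a factor that is active when growth signals are withdrawn, rose in SS by 1.97 and fell by 0.96 with ADMA. The other 2 that fell with ADMA were GALNT3, a glycosyltransferase, and ADAM17, a sheddase of TNF and its receptors, named after their values were seen, with differences of -0.52 and -0.32, the last of them not called after quantile normalization.

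**Figure D5:**
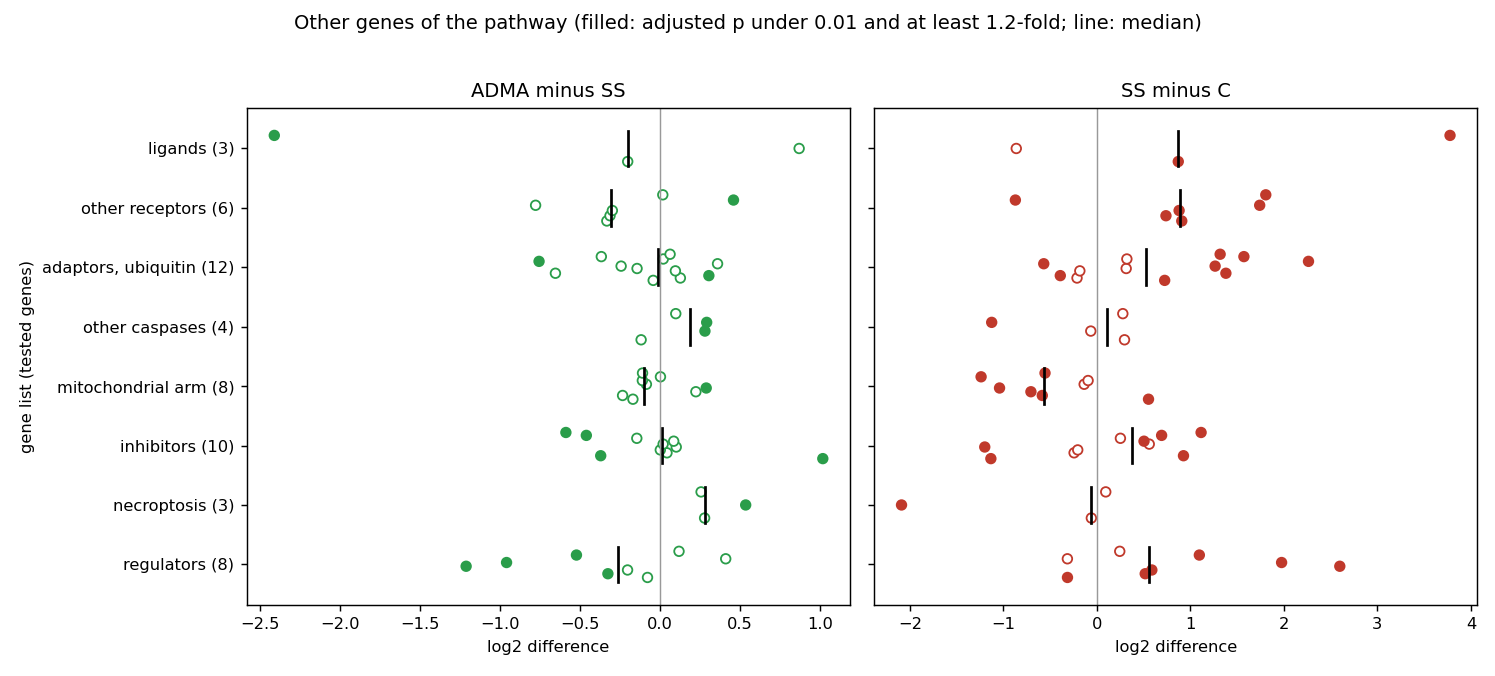
Log2 differences of the 54 tested partner genes by list, with ADMA minus SS on the left and SS minus C on the right; each point is a gene, filled where called, and black lines are list medians. The list labelled inhibitors also holds DAP3 and FAF1, which are not inhibitors. In SS minus C the receptors lie mostly above 0 and the mitochondrial arm mostly below it, and most points in ADMA minus SS are open. Of all genes 30.3% were called higher and 27.3% lower in SS minus C.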

How the data were processed

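Total RNA of the 10 LoVo cultures was hybridized to Affymetrix HG-U133 Plus 2.0 arrays. The deposited values are intensities on a linear scale that the authors made with MAS 5.0 for 54675 probe sets, with a 2% trimmed mean of 500.1 on every array. By the platform annotation, 41091 probe sets have a single gene symbol, 1801 have more, 11721 have none and 62 are for controls. A single symbol was required to name a gene, so 2 probe sets shared by TNFRSF10C and another gene were left out. The log2 of each intensity was taken without a pseudocount. Each gene was read from its brightest probe set and tested where the mean reached the 50th percentile of all probe sets, a signal of 76.2. The 3 groups were set against each other in 1 fit of all 10 arrays by limma 3.58.1 under R 4.3.3, with lmFit, trended eBayes and Benjamini-Hochberg adjustment over 12344 genes. The false discovery rate of 0.01 and the fold of 1.2 are those of the study, which used SAM; SAM was not run here. The number of arrays limits the precision, and no 2 arrays held identical values (correlation within groups at most 0.987). Some genes of the partner lists are not reported here. The members and lists were chosen with earlier results of these data known. From each partner list, the 2 called genes with the largest absolute difference in serum starvation and with ADMA were named, or the brightest gene where none was called. Likeness between genes was the root mean square of the difference between their centred log2 values over 10 arrays. Alternatives were quantile normalization, centring on medians, other filters, all probe sets of a gene averaged, no probe sets with the suffix _x_at or _s_at, a pseudocount of 16, a floor at background, other limma settings, 2 groups alone, looser thresholds, the replicate number as a block, each array left out and, added after the data were seen, a fit over probe sets and averages over measured probe sets alone. Plots were made in Python 3.11.15 using matplotlib 3.10.9.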

Additional observations from a re-analysis of the deposited data

Results flagged for a closer look

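In the 4 ADMA arrays, Dixon's test for a value far from the rest of its group was applied to each of the 32 measured probe sets of the 10 genes, and chance marks about 1 in 20 groups. For TNFRSF10D, ADMA replicate 2 stood above the others in 210654_at, at 183 against 127, 131 and 132, a gap of 0.908 of the group's range in log2. The brighter TNFRSF10D probe set showed no such array. For FAS, ADMA replicate 1 stood below the others in 204780_s_at, at 2698 against 2912, 2920.4 and 2913, a gap of 0.962 of the range. Without that array the difference of FAS between ADMA and SS stayed within -0.74 to -0.68, the range over all arrays left out.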

How the results depend on the processing

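Of 612 values of single genes recomputed under the alternatives, 318 of those with all arrays and 266 of those with 1 array left out kept their direction and their side of the threshold. Centring on array medians changed most. Genes of the set called lower in SS than in C were 4 in place of 2, and between ADMA and C 1 was called higher and 5 lower in place of 4 and 1. Over all genes it gave 2013 higher and 5184 lower in place of 3738 and 3372 between SS and C, 901 higher in place of 1935 between ADMA and SS, and 1209 higher and 6101 lower in place of 3284 and 2859 between ADMA and C. It turned the sign of TNFRSF10A between SS and C (-0.26), of TNFSF10 (-0.0011) and CFLAR (-0.078) between ADMA and SS, and of FAS (-0.47) and CASP8 (-0.41) between ADMA and C. With quantile normalization CFLAR turned to 0.010 between ADMA and C. With all probe sets of a gene averaged, 1 gene of the set was called lower between SS and C, 1 higher between ADMA and SS, 942 of all genes lower in place of 1704, and 10 partner genes in place of 16, and CFLAR read 1.24, -0.25 and 1.0 between SS and C, ADMA and SS, and ADMA and C. That average holds 2 CFLAR probe sets under the filter and 239629_at as measured, and over the 12 measured ones the difference between ADMA and SS was -0.098. Without _x_at and _s_at probe sets, which leaves TNFRSF1A with no value, 1 gene of the set was called lower between SS and C and 0 higher between ADMA and SS, 1286 of all genes were higher there, and CFLAR, read there from 239629_at with 1 of 3 C arrays above background, gave 3.85, -0.044 and 3.81 as measured, and 3.17 and 3.13 against C with arrays counted at no less than background. Leaving out 1 array gave 0 to 1 gene called lower between ADMA and C, and turned FAS between ADMA and C to -0.032 without C replicate 1 (range to 0.12), CFLAR between ADMA and SS to -0.011 without SS replicate 2 (range to 0.10), and TNFRSF10A between ADMA and C to 0.0036 without ADMA replicate 2 (range -0.11 to 0.0036). The cause of these changes was not tested. With the replicate number as a block, 3714 and 3345 genes were called higher and lower between SS and C, 1644 and 1439 between ADMA and SS, and 3163 and 2779 between ADMA and C, and no call in the set changed. ADMA replicate 4 has no same-numbered partner, so the block also takes it out, and leaving it out alone gave 3715 and 3346, 1678 and 1443, and 3167 and 2777. Deviations from the group mean correlated at -0.074 to 0.10 between same-numbered arrays, in 9 pairs. With so few arrays per group, whose deviations sum to 0, this cannot decide whether the numbers pair the samples. Signals near background limit TNFRSF10C, which has no usable value.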

Other observations

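For each of the 7 genes called in serum starvation or with ADMA, the genes whose log2 signals followed it most closely over the 10 arrays were looked up among all genes tested, and this is a description of these arrays. TNFRSF10B was followed by TGFA, a ligand of the epidermal growth factor receptor, at a root mean square difference of 0.0820. The nearest pattern to TNFRSF10D was that of DUSP4, a phosphatase of MAP kinases (0.116), and then LCN2, which encodes lipocalin-2 (0.121). FAS was nearest to CALU, which encodes calumenin (0.0650), and TNFRSF21 to SH3D19 (0.0651) and DUSP3, another dual-specificity phosphatase (0.0744). TNFSF10 was nearest to RAVER2 (0.101) and SDHD, a subunit of succinate dehydrogenase (0.103). CASP8 was nearest to LIPA, the lysosomal acid lipase (0.0725), and PLCB4 (0.0729), while the nearest to TNFRSF1A were KNOP1 (0.118) and HOTTIP (0.124).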
